A study of Rattus norvegicus with 4 samples.

Results

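Genes for the proteins of the cytosolic ribosome were compared between G and MAT-LyLu, 2 sublines of the Dunning R3327 rat prostate tumour. The members were the probe sets annotated to a single gene whose symbol begins with Rpl or Rps and a digit, or is Rplp0, Rplp1, Rplp2 or Rpsa, with the Rps6k kinases left out. That rule took 63 of the 8740 rat probe sets, which read 43 of the 4736 genes named by a single symbol. It also took 3 probe sets of the pseudogenes Rps2-ps1 and Rps4x-ps9, while 40 probe sets that list a ribosomal symbol beside other symbols were not members and are not named. Total RNA of each line was labelled with biotin as cRNA and hybridised to 2 Affymetrix oligonucleotide arrays, numbered replicate 0 and replicate 1, so that 4 arrays were measured in all. The labels call G non-metastatic and MAT-LyLu highly metastatic, and each group is 1 cell line. No treatment, time, passage or separate culture is given, so every p-value below rests on array-to-array spread that may be purely technical. In such bulk RNA, fewer cells of a type and less RNA per cell cannot be told apart.

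A ribosome is built from a small and a large subunit, each a core of ribosomal RNA covered by many small basic proteins, and its proteins are needed in nearly equal amounts. Proteins of the small subunit carry names beginning with Rps and those of the large subunit names beginning with Rpl. Their mRNAs are among the most abundant of a growing cell and commonly begin with a run of pyrimidines, the terminal oligopyrimidine or TOP motif, through which growth signalling by mTOR sets their translation. Several of the free proteins have further roles, such as the binding of Mdm2 by Rpl5 and Rpl11, which links ribosome assembly to p53.

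Runs of pyrimidines near the annotated gene starts, a feature the rule did not use, were common among the members. Of the 43 genes, 36 matched a promoter entry of RefSeq (build GRCr8) by gene identifier. In the 30 bases from 20 before to 10 after the annotated gene start, the longest run of C and T on the gene's own strand had a median of 10 bases among these 36, against 4 bases among all 33469 promoters. A run of 7 bases or more stood in 25 of the 36 (69.4%), against 18.5% of all promoters. That run covered the annotated start in 16 of the 36 (44.4%), against 5.57% of all promoters, and lay beside it in the other 9 of the 25. The windows of the member genes past the threshold below are printed here 5′ to 3′ with the longest such run in capitals, and those of Rps24 and Rps27l are added for a long and a short run.
Rpl4: agtgataagTTCTTCCTTTTCCTgtgggag
Rpl5: cagccaCTCTCTTTCCCacgtcgcttgcgt
Rpl13a: caagaCCTCTTCCTTTCCTaggcggctgcc
Rpl14: cggcagggcgggCCCTCTCCCTTCTCgctg
Rpl21: CCCTCTTCCTTTCCgccggggcagccatct
Rps6: ttcgtgacgCCTCCTaggcggtcggctgtg
Rpl3l: catttgaCCTCTggtgcctggtggggaggt
Rps24: ggcagtgagcggTCCTCTTTTCCTCCTTTa
Rps27l: ttatagTTTattcatttgtcattatttgtg
The windows lie at chr8:73566457-73566486 (plus strand) for Rpl4, chr14:1995216-1995245 (minus) for Rpl5, chr1:104748904-104748933 (minus) for Rpl13a and chr8:129163600-129163629 (plus) for Rpl14. For Rpl21 the window is chr12:13386144-13386173 (minus), for Rps6 chr5:106420531-106420560 (minus), for Rpl3l chr10:14258426-14258455 (plus), for Rps24 chr16:96497-96526 (plus) and for Rps27l chr8:76443638-76443667 (plus). The runs were 14 bases long in Rpl4, Rpl13a, Rpl14 and Rpl21, 11 in Rpl5, 6 in Rps6 and 5 in Rpl3l, so the genes with higher and with lower signals below both include long runs. In Rpl4, Rpl14 and Rps24 the run covers the annotated start, and in the other 6 it ends before that base, so it is not the beginning of the mRNA as annotated. Rpl19l4 and Rpl30 had no entry. Over the whole 300 bases from 250 before to 50 after the start, on either strand, 3 motifs were searched, none of which contains another. CCGGAAG, the core bound by ETS factors, stood in 9 of the 36 and in 8.75% of all promoters. ATGGCGG, the core of the YY1 motif, stood in 27.8% against 4.80%, and TATAAA in 11.1% against 14.2%. These matches describe letters in a window and say nothing of binding.

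Most members were read high on the signal scale, 43 of the 61 tested at 30000 or more in MAT-LyLu, and the top of this scale differed between arrays. The highest signal was 47120 on G replicate 0, 64036 on G replicate 1, 46422 on MAT-LyLu replicate 0 and 45582 on MAT-LyLu replicate 1. Signals within 5% of the array's maximum were taken as near the maximum, where a signal may be saturated. In all, 43 tested probe sets reached it on at least 1 array, and 8 of these were members. The maxima alone differ by -0.26 between the lines on the log2 scale (mean of MAT-LyLu minus mean of G). G replicate 1 read bright members higher than G replicate 0. Its log2 excess had a median of 0.02 over the 10 tested members under 10000 signal units in MAT-LyLu, of 0.20 over the 22 members from 35000 to 40000, and of 0.29 over the 14 members at 40000 or more. Over all tested probe sets of those same ranges the medians were -0.05, 0.18 and 0.30, so over all tested probe sets, too, the excess was larger in the brighter ranges. The 9 probe sets of the bacterial and phage hybridisation controls BioB, BioC, BioD and Cre, which standard Affymetrix procedures add to each hybridisation, also read higher on G replicate 1, by 0.19 to 0.65, while the MAT-LyLu arrays differed there by -0.11 to 0.10. Among these controls the excess did not grow with brightness, since the largest was in a BioB probe set at 3470 on G replicate 0 and the smallest in a BioD probe set at 33454. The part that this array had in the results below was not tested beyond leaving it out.

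**Figure D1:**
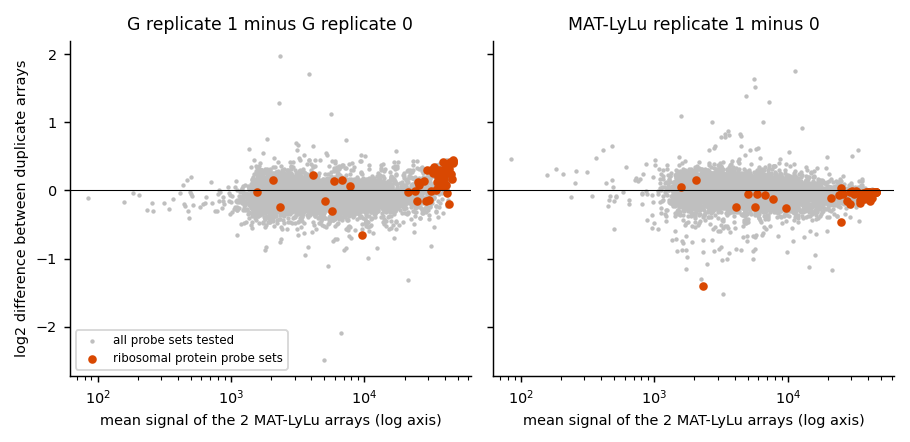
Log2 difference between the duplicate arrays of G (left) and of MAT-LyLu (right) for each tested probe set, against the mean signal of the 2 MAT-LyLu arrays on a log axis; grey points are all 6555 probe sets tested and orange points the 61 tested ribosomal members. On the left most bright members lie above 0. G replicate 1 was the higher for 48 of 61 members and for 2352 of all 6555. At a MAT-LyLu mean of 30000 or more it was the higher for 39 of 43 members and 180 of all 226. On the right most members lie near 0, with Rpl19l4 lowest.

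MAT-LyLu and G differed in few ribosomal protein genes, and the differences were small. Rpl4, Rpl5, Rpl13a, Rpl14, Rpl3l and Rps6 were higher in MAT-LyLu by 1.28-fold to 1.59-fold, and Rpl30, Rpl21 and Rpl19l4 were lower. Of the 61 members that passed the filter on dim probe sets, 6 were higher and 3 lower at an adjusted p under 0.05 (limma, Benjamini-Hochberg over all 6555 probe sets tested), and 52 did not pass. Past that threshold in either direction were 34.1% of all probe sets, 13.9% higher and 20.3% lower, against 14.8% of the members. At a MAT-LyLu mean of 30000 or more, where 43 of the 61 members lie, 16.8% of all 226 tested probe sets were past the threshold, against 2.33% of the members there. Under 30000 the shares were 34.8% of all and 44.4% of the members. These ranges use the MAT-LyLu mean, which is 1 side of the comparison. Probe sets bright only in MAT-LyLu enter the upper range and those bright only in G do not. The shares therefore depend in part on how the ranges were set. The difference in share was not tested. Rpl19l4 was the only member that changed by 2-fold or more, as did 588 of all 6555.

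The members as a group had no settled direction. Their median log2 difference (MAT-LyLu minus G) was -0.07, beside -0.03 over all tested probe sets, with 25 members above 0 and 36 below. Without G replicate 1 the median was 0.03, with 33 of 61 above 0, beside -0.04 and 2845 of 6555 over all tested probe sets. Without G replicate 0 it was -0.12, beside -0.02 over all. Quantile normalization gave a median of 0.02 with 19 members higher and 2 lower, cyclic loess 0.04 with 13 and 1, and median scaling -0.02 with 7 and 2. Leaving out G replicate 0 gave 10 higher and 23 lower. Both MAT-LyLu arrays lay above both G arrays for 17 of the 61 members (28.6% of all tested probe sets) and below both for 20 (39.2% of all), and the lines overlapped for the other 24.

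**Figure D2:**
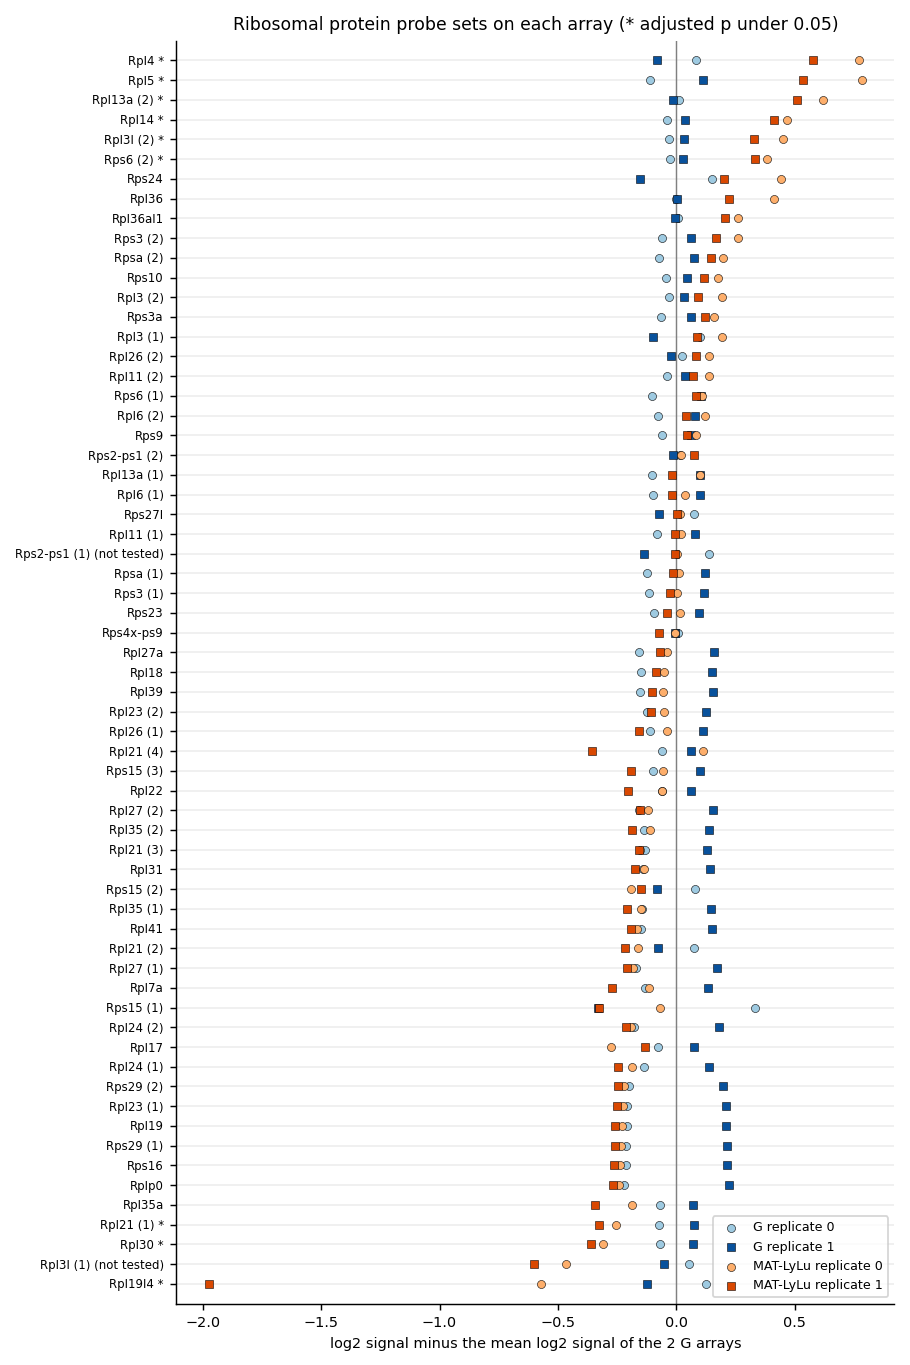
Log2 signal of each of the 63 ribosomal probe sets on each array, relative to the mean of the 2 G arrays and sorted by the difference between the lines; numbers in brackets separate probe sets of 1 gene. The asterisks mark the 9 probe sets past the threshold, which lie near the top and the bottom, and for most members in the lower part of the plot G replicate 1 stands to the right of the other 3 arrays.

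Rpl4 lines the exit tunnel for the growing protein with an extended loop. Its signals were 19247 and 17197 on the G arrays and 31056 and 27130 on the MAT-LyLu arrays, so that the lines did not overlap. The fitted difference was 0.67 on the log2 scale (SE 0.11, 1.59-fold, limma adjusted p = 0.0027), and Rpl4 passed the threshold in all 17 alternatives, at 0.58 to 0.78.

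Rpl5 carries the 5S ribosomal RNA into the large subunit together with Rpl11. Its single probe set read 2386 and 2789 in G and 4437 and 3732 in MAT-LyLu, again without overlap, and the G values lie just above the background level of 1891 to 2311 set by control probe sets. The difference was 0.65 (SE 0.12, 1.57-fold, limma adjusted p = 0.0034), and it passed in all 17 alternatives. Its partner Rpl11 did not pass on either of its 2 probe sets, at log2 differences of 0.01 (adjusted p = 0.98) and 0.10 (adjusted p = 0.51) in limma. Both probe sets passed as higher under quantile normalization only. The first of these read 42461 and 47451 in G and 45472 and 44648 in MAT-LyLu, where both MAT-LyLu values were within 5% of the maximum.

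Rpl13a is a large subunit protein also known for silencing the translation of inflammatory mRNAs once released from the ribosome. On 1 of its 2 probe sets the signals were 14408 and 14162 in G and 21958 and 20300 in MAT-LyLu, a log2 difference of 0.56 (SE 0.09, 1.48-fold, limma adjusted p = 0.0024) that held in all 16 alternatives that tested it. The other probe set missed the threshold, with 32039 and 36873 in G and 36785 and 33910 in MAT-LyLu, a difference of 0.04 (adjusted p = 0.84 in limma). The 2 probe sets of Rpl13a therefore disagree, and the lines overlapped on the second.

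Rpl14, a large subunit protein, read 18511 and 19507 in G and 26263 and 25259 in MAT-LyLu. Its difference of 0.44 (SE 0.10, 1.36-fold, limma adjusted p = 0.0094) lost the call when MAT-LyLu replicate 0 was left out (0.41, adjusted p = 0.10) or MAT-LyLu replicate 1 (0.47, adjusted p = 0.071). The lines did not overlap.

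Rps6 is the small subunit protein that S6 kinase phosphorylates downstream of mTOR, and it was the only small subunit member past the threshold. Its first probe set read 27229 and 28300 in G and 36237 and 34919 in MAT-LyLu, with a difference of 0.36 (SE 0.10, 1.28-fold, limma adjusted p = 0.030). Leaving out MAT-LyLu replicate 0 (0.33, adjusted p = 0.25) or MAT-LyLu replicate 1 (0.38, adjusted p = 0.21) ended the call at a difference of similar size. A second probe set from the same sequence read 33410 and 38541 in G against 38656 and 38012 in MAT-LyLu, overlapped between the lines and missed the threshold (0.10, limma adjusted p = 0.58). It passed under quantile normalization only (0.18, limma adjusted p = 0.019).

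Rpl3l encodes a paralogue of Rpl3 that is known from skeletal and heart muscle, and its 2 probe sets went opposite ways. The first read 5803 and 6074 in G and 8106 and 7441 in MAT-LyLu, a rise of 0.39 (SE 0.09, 1.31-fold, limma adjusted p = 0.010) that was no longer past the threshold once MAT-LyLu replicate 0 was left out (adjusted p = 0.069). The other read 1512 and 1404 in G and 1055 and 962 in MAT-LyLu, lay under the background level on every array and was left out by the filter. With no filter it passed the threshold as lower in MAT-LyLu. Rpl3 itself, which shapes the peptidyl transferase centre, was not called on either probe set, at 0.14 on each. With every array kept, the Rpl3 probe set of lower mean signal passed as higher under quantile normalization and cyclic loess.

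**Figure D3:**
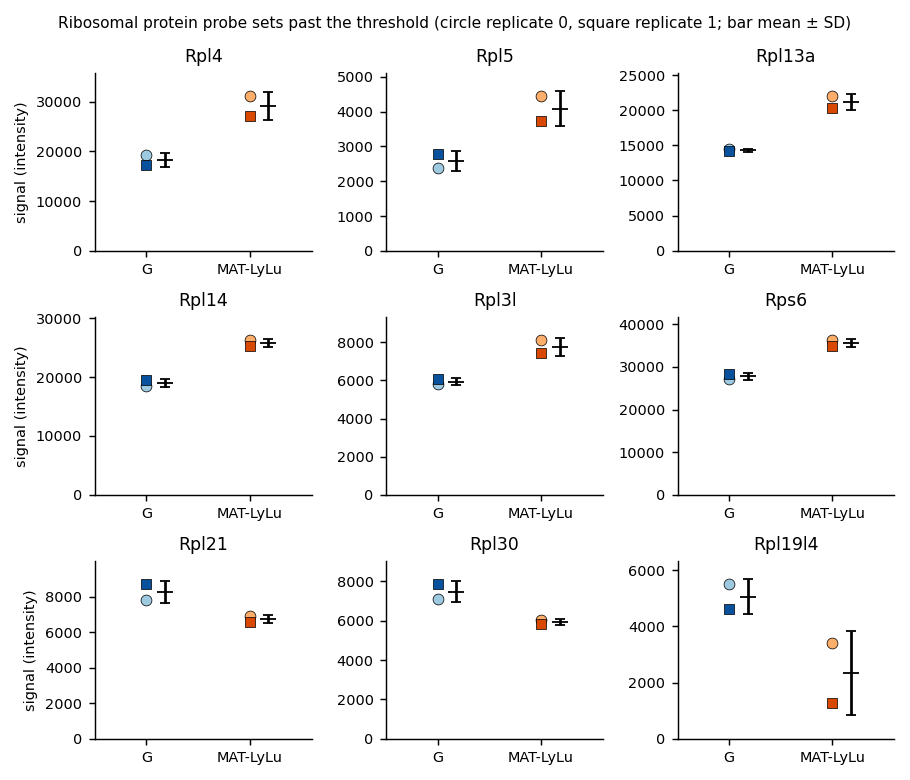
Signals of the 9 ribosomal probe sets past the threshold on the 2 G and the 2 MAT-LyLu arrays; circles are replicate 0, squares replicate 1, and the bars are the mean ± SD of the 2 arrays. The duplicates lie close together except for Rpl19l4 in MAT-LyLu, at 3391 and 1283.

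Rpl30, a small protein near the subunit interface, read 7113 and 7845 in G and 6033 and 5817 in MAT-LyLu. The lines did not overlap, and the log2 difference was -0.33 (SE 0.09, limma adjusted p = 0.021). This call ended with quantile normalization (adjusted p = 0.10) and cyclic loess (adjusted p = 0.054), and when G replicate 1 (adjusted p = 0.10) or either MAT-LyLu array (adjusted p = 0.058 and 0.11) was left out. The probe set can match related transcripts.

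Rpl21 was read by 4 probe sets, of which 1 was lower in MAT-LyLu and none was higher. The called one read 7834 and 8695 in G and 6908 and 6574 in MAT-LyLu, a difference of -0.29 (SE 0.09, limma adjusted p = 0.040) that failed in 7 of 16 alternatives, among them quantile, median and loess scaling and the fits without G replicate 1 and without either MAT-LyLu array. The other 3 had differences of -0.19, -0.15 and -0.12, and the last of them differed between the MAT-LyLu arrays, at 29345 and 21203.

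Rpl19l4 is annotated as an Rpl19-like gene. Its signals were 5491 and 4622 in G and 3391 and 1283 in MAT-LyLu, of which the last lay under the background level. The difference of -1.26 (SE 0.37, limma adjusted p = 0.034) was -0.57 without MAT-LyLu replicate 1 and -1.96 without MAT-LyLu replicate 0. With signals floored at the background level it was -0.84, which is less than 2-fold. Like that of Rpl30, this probe set can match related transcripts. The call was lost with quantile normalization, without G replicate 0 and with all arrays capped at the lowest array maximum. Rpl19 itself, a protein of the large subunit, read 45236 and 60454 in G and 44549 and 43737 in MAT-LyLu, within 5% of the maximum on 3 arrays.

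The 5 members nearest the ceiling, Rplp0, Rps16, both probe sets of Rps29 and Rpl19, had differences close to that of the ceilings themselves. Rplp0, the base of the stalk that binds elongation factors, read 47023 and 63999 in G and 46341 and 45503 in MAT-LyLu, which is 99.8% or more of each array's maximum. Its log2 difference was -0.26 (SE 0.16, limma adjusted p = 0.27). It was -0.03 without G replicate 1 and -0.48 without G replicate 0, where Rplp0 passed the threshold (limma adjusted p = 0.00033). Rps16 and both probe sets of Rps29, proteins of the small subunit head, were also near the maximum on all 4 arrays, with differences of -0.25, -0.25 and -0.23. Without G replicate 1 these came to -0.03, -0.04 and -0.04, and without G replicate 0 to -0.46, -0.46 and -0.43, each past the threshold. Rpl19 had -0.24, with -0.04 and -0.45 in the same fits, and was also past the threshold in the second. The size of these 5 differences thus rests on which G array is used. The other 3 members with a signal within 5% of a maximum had differences of 0.01 (Rpl11), -0.01 (Rps3) and 0.14 (Rpl3). For the members at the ceiling a difference above the ceiling could not be read. Just inside the 5% limit lay Rpl3 on MAT-LyLu replicate 0 and Rpl19 on 3 arrays, each at 96.0% of the maximum, and just outside it Rpl19 on G replicate 1 and Rpl7a on MAT-LyLu replicate 0, each at 94.4%.

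The difference between the lines had a different spread at different brightness. Among the 18 tested members whose MAT-LyLu mean was under 30000, 5 were higher and 3 lower. Among the 43 at 30000 or more, 1 was higher and none lower in limma, and none was lower at an unadjusted p under 0.05. Of all 226 tested probe sets at 30000 or more, 32 were higher and 6 lower, and 8 were lower at an unadjusted p under 0.05 in limma. Because the MAT-LyLu mean alone sets this range, a lean to higher is partly built into it. The bright members had log2 differences from -0.26 to 0.36 and the dimmer ones from -1.26 to 0.67. Without G replicate 1 the 43 bright members had a median of 0.07, with 26 above 0, against -0.06 and 18 with all arrays.

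Both subunits had shares past the threshold under the 34.1% of all tested probe sets, at 5.0% for the small and 19.5% for the large. Of 20 tested small subunit probe sets, 1 was higher, none was lower and 19 did not pass, with a median log2 difference of 0.003. None of these 20 was lower at an unadjusted p under 0.05 in limma. Of 41 large subunit probe sets, 5 were higher, 3 lower and 33 did not pass, with a median of -0.12. Without G replicate 1 the medians were 0.09 and 0.01. The difference between the subunits was not tested.

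Among small subunit members that did not pass, Rps24, a protein needed to process the precursor of the small subunit RNA, read 5028 and 4074 in G and 6154 and 5210 in MAT-LyLu (log2 difference 0.32, limma adjusted p = 0.091). With every array kept, Rps24 passed as higher under median scaling, with signals floored at the background level and with the replicate block. Rps3, at the mRNA entry channel, read 31788 and 34661 in G and 39698 and 37283 in MAT-LyLu on its first probe set, a difference of 0.21 (adjusted p = 0.19). Its second probe set, at -0.01, was within 5% of the maximum on both MAT-LyLu arrays. Rpsa, also known as the laminin receptor precursor, read 33222 and 36879 in G and 40106 and 38687 in MAT-LyLu on 1 probe set (0.17, adjusted p = 0.30) and overlapped on the other (-0.0025, adjusted p = 0.99). Without G replicate 1 the first probe sets of Rps3 and Rpsa passed, at 0.28 and 0.25. Without G replicate 0 they did not, at 0.15 (adjusted p = 0.15) and 0.10 (adjusted p = 0.33). Rps10, Rps3a, Rps9 and Rps23 had differences of 0.14, 0.14, 0.06 and -0.01. With all arrays, quantile normalization and cyclic loess each called Rps10, Rps3a and the first probe sets of Rps3 and Rpsa higher. Median scaling called none of these. Rps9 and the second probe set of Rps3 passed as higher under quantile normalization but not under cyclic loess. Rps15 had 3 probe sets at -0.20, -0.17 and -0.12, of which the first 2 passed in 1 alternative, without G replicate 1, and the first turned to 0.13 without G replicate 0. Rps27l, annotated as a paralogue of Rps27 that p53 induces, read 31673 and 28616 in G and 30417 and 30146 in MAT-LyLu, a difference of 0.01 (adjusted p = 0.96).

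Among large subunit members that did not pass, Rpl36 read 27716 and 27758 in G and 36892 and 32356 in MAT-LyLu, a difference of 0.32 (SE 0.11, adjusted p = 0.064) without overlap. It passed under quantile and loess scaling, without either G array, with no intensity trend, with all arrays capped, with 1 probe set per gene and with the probe sets near the maximum left out. Rpl36al1 read 26812 and 26517 in G and 31976 and 30772 in MAT-LyLu (0.23, adjusted p = 0.12). Rpl35a went the other way, with 31893 and 35106 in G and 29366 and 26367 in MAT-LyLu (-0.27, adjusted p = 0.12). In these 3 members the lines did not overlap although the threshold was missed. Among the alternatives that kept every array, Rpl36al1 passed under quantile and loess scaling and with all arrays capped. Rpl35a passed there as lower under quantile normalization only. Rpl17 was dim, at 2252 and 2503 in G against 1959 and 2168 in MAT-LyLu. Rpl6, at 0.08 and 0.01, and Rpl26, at -0.10 and 0.11 on its 2 probe sets, showed no difference past the threshold. The Rpl6 probe set at 0.08 passed as higher under quantile normalization only. Rpl22, which has roles in lymphocyte development, had -0.13, and Rpl39, a very small protein of the exit tunnel, -0.08.

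In several bright large subunit members G replicate 0 lay close to the MAT-LyLu arrays and G replicate 1 above them. Rpl41, one of the smallest proteins known, read 30157 on G replicate 0, 37064 on G replicate 1 and 29824 and 29242 in MAT-LyLu. Rpl27 read 33572 and 42573 in G and 33340 and 32746 in MAT-LyLu on 1 probe set, and Rpl31 40065 and 48776 in G and 40184 and 39185 in MAT-LyLu. The lines overlapped for Rpl31, and for Rpl41 and this probe set of Rpl27 both MAT-LyLu arrays lay below both G arrays, by a small margin from G replicate 0. Their log2 differences of -0.18, -0.19 and -0.16 became -0.03, -0.02 and -0.01 without G replicate 1, and -0.33, -0.37 and -0.30 without G replicate 0. Rpl23, Rpl24, Rpl35, Rpl7a, Rpl18 and Rpl27a had differences from -0.24 to -0.06 with all arrays, and from -0.08 to 0.10 without G replicate 1. Without G replicate 0 they ran from -0.45 to -0.20, and all probe sets of these 9 genes passed the threshold as lower in MAT-LyLu.

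The pseudogene probe sets gave no call. Rps4x-ps9 read 24880 and 24681 in G and 24686 and 23583 in MAT-LyLu, a difference of -0.04 (adjusted p = 0.80), and its probes may also match the parent gene. The 2 probe sets of Rps2-ps1 lay under the background level on every array, and 1 of them was left out by the filter. In all, 17 genes were read by more than 1 probe set; the tested probe sets of 3 (Rpl13a, Rpl21, Rps6) differed in call and those of 3 others (Rpl26, Rps3, Rpsa) in sign.

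**Figure D4:**
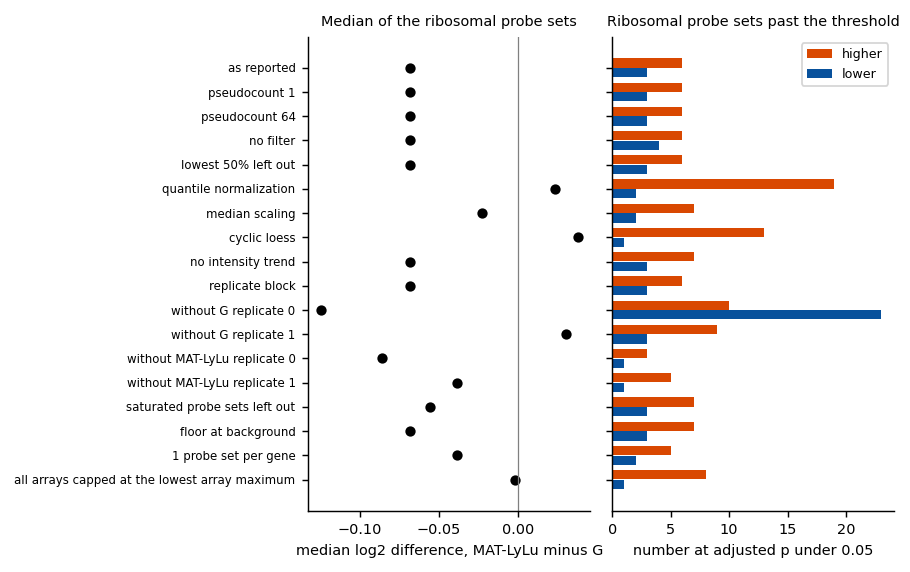
Median log2 difference of the tested ribosomal probe sets (left) and number of them past the threshold in each direction (right) for the reported fit and each alternative. The median lies between -0.12 and 0.04 and changes sign with quantile and loess scaling and without G replicate 1, and the largest count of lower probe sets, 23, comes without G replicate 0.

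Genes that make or drive ribosomes were past the threshold on 11 of 21 probe sets; this is 52.4%, beside 34.1% of all tested probe sets, and no difference between lists was tested. Of these 21, from 13 genes of the nucleolus, of assembly and import and of RNA polymerase I, 9 were higher (13.9% of all), 2 lower (20.3% of all) and 10 did not pass, with a median log2 difference of 0.19. Nolc1, a nucleolar chaperone, was higher on 2 of its 3 probe sets. The one with the larger change read 1930 and 1802 in G and 2987 and 3262 in MAT-LyLu (0.74, adjusted p = 0.00052). Both of its G values lay under the background level of their arrays, at 1973 and 2143. The other higher one lay above that level on every array (0.59, adjusted p = 0.00089). The brightest Nolc1 probe set missed the threshold, with a small difference of opposite sign (-0.07, adjusted p = 0.59). Its G arrays gave 13088 and 13478, against 12641 and 12684 for MAT-LyLu. Ipo7, which imports ribosomal proteins into the nucleus, read 3119 and 2160 in G and 5565 and 4721 in MAT-LyLu (0.98, adjusted p = 0.0029). The 2 lower probe sets were both of Dkc1, the pseudouridine synthase of ribosomal RNA, at -0.63 and -0.56; Dkc1 was named after its values were seen.

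Translation factors and their regulators changed in both directions, with 45.0% past the threshold beside 34.1% of all. The list mixes factors with proteins that restrain translation. Of the latter, Eif4ebp1, Eif2ak2 and Eif2ak3 were among the lower and Eef2k among the higher, so the counts give no direction for translation. Of 40 tested probe sets from 24 genes, 7 were higher, 11 lower and 22 did not pass, with a median of -0.06 that turned to 0.01 under quantile normalization and 0.02 under cyclic loess. Eif5, the activator of initiation factor 2, read 5036 and 4246 in G and 13423 and 14496 in MAT-LyLu on 1 of its 2 probe sets (1.59, adjusted p = 1.6e-05). Eif4a2, a helicase of the cap-binding complex, was lower on both probe sets, which come from the same sequence. The first read 22102 and 21719 in G and 8967 and 7633 in MAT-LyLu (-1.40, limma adjusted p = 2.9e-05). The split of the list was 10 higher and 11 lower under quantile and loess scaling and 9 and 11 under median scaling.

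Mitochondrial ribosomal proteins, which build the separate ribosome of the mitochondrion, were lower on 6 of 16 tested probe sets. These 37.5% stand beside 20.3% of all that were lower and 34.1% of all past the threshold in either direction. None was higher in limma (13.9% of all), nor at an unadjusted p under 0.05, and the median was -0.28. Mrpl40 had the largest fall of this list, from 7267 and 7180 in G to 3931 and 4093 in MAT-LyLu (-0.85, adjusted p = 0.00011), and Mrpl38 (-0.64) and Mrpl45 (-0.52) were the next by p. Among 10 probe sets for ribosome-associated proteins and other TOP mRNAs, 6 were higher (60.0%, beside 13.9% of all higher and 34.1% in either direction). None was lower (20.3% of all), nor lower at an unadjusted p under 0.05, and the median was 0.53. The 6 higher ones read only Nap1l1 and Hnrnpa1. Nap1l1, a histone chaperone, read 4154 and 3384 in G and 16143 and 17770 in MAT-LyLu on the probe set with the larger change (2.17, adjusted p = 4.3e-06). Rack1, a scaffold on the small subunit, did not pass at 0.09.

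**Figure D5:**
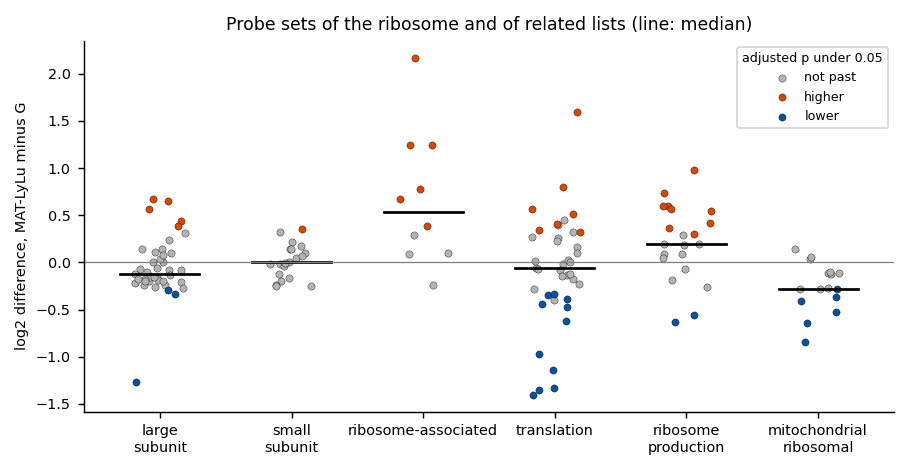
Log2 difference (MAT-LyLu minus G) of every tested probe set of the large and small subunit and of 4 related lists; each point is 1 probe set, coloured where its adjusted p was under 0.05, and the black lines are medians. Points of the subunits lie near 0 with medians of -0.12 and 0.003, the mitochondrial ribosomal list lies lower at -0.28 and the ribosome production list higher at 0.19.

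Markers were read against the background level. Of 7 prostate epithelial genes with a probe set, Krt5 was above it on both G arrays, and Krt5 and Krt8 on both MAT-LyLu arrays; the summed signal of the 12 probe sets was 13528 to 15090 in G and 54484 to 55143 in MAT-LyLu. Of these 12, 1 was higher in MAT-LyLu, Krt8, at 1978 and 1691 in G and 41435 and 41521 in MAT-LyLu. All 7 fibroblast genes were above it in G and Col1a1 alone in MAT-LyLu, with sums of 264810 to 267958 and 22470 to 24462 over 18 probe sets. Leukocyte, endothelial and muscle markers had 2 of 6, 1 of 3 and 4 of 6 genes above it in both lines, and their sums were alike in size, at 17867 to 17984 and 17588 to 17978 for leukocytes, 6723 to 6785 and 6683 to 7231 for endothelium and 24910 to 26199 and 23925 to 24599 for muscle. Of the 18 fibroblast probe sets 14 were lower in MAT-LyLu at the threshold, beside 20.3% of all tested probe sets. Of the 6 muscle probe sets 1 was higher, and no leukocyte or endothelial probe set was past the threshold. The part of these shifts in the ribosomal results was not tested.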

How the data were processed

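The authors deposited 1 table of signal intensities, on a linear scale and with 1 value per probe set and array. Per the submitters' processing notes MAS5 made them; no source used here gives its version or scaling target. The 4 array medians ran from 2998 to 3156, and no further scaling was applied. With 2 arrays per line, the spread within a line is estimated only roughly. Symbols came from the platform annotation; 62 of the 63 member probe sets matched the GRCr8 RefSeq table. Control probe sets and the 25% of rat probe sets with the lowest mean were left out. MAT-LyLu was compared with G on log2(signal + 16) in limma 3.58.1 (R 4.3.3; lmFit, eBayes with intensity trend, 2-sided), with Benjamini-Hochberg adjustment over 6555 probe sets at a threshold of 0.05. Fold changes are on this log2 scale. The fit was tested on simulated data. An exact permutation of 2 against 2 arrays cannot go below p = 0.333. The background level was the 95th percentile of 23 control probe sets of other organisms. Members, lists and tests were chosen with earlier results of these data known. Named were members past the threshold, members within 5% of an array maximum, genes whose probe sets disagree, and in each other list the 3 probe sets past the threshold with the smallest p; other members are given to account for all. Alternatives covered pseudocount, filter, scaling, variance model, replicate block, arrays left out, saturation, background floor and 1 probe set per gene.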

Additional observations from a re-analysis of the deposited data

How the results depend on the processing

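Counts of members past the threshold moved by over 1.5 times with the scaling and with the arrays used. Quantile normalization gave 19 members higher (17.3% of all tested probe sets) with a median log2 difference of 0.023, beside 0.025 over all. Cyclic loess gave 13 higher (16.2% of all) and 1 lower (18.8% of all) with a median of 0.038, beside 0.008 over all. All arrays capped at the lowest array maximum, an alternative chosen after seeing the data, left 1 member lower (19.5% of all). Leaving out 1 array gave 3 to 10 members higher, 1 to 23 lower and medians from -0.12 to 0.030, with 10 to 24 calls in the translation list and 7 to 11 in the ribosome production list. With 1 probe set per gene, where fewer were tested, 568 probe sets were higher and 796 lower, and the lists had 11 (translation), 6 (ribosome production) and 3 (ribosome-associated) calls. The duplicates share only a number (correlation of same-numbered deviations 0.16), and with the replicate block 6 members were higher and 3 lower, where Rps24 gained and Rps6 lost its call (0.36, limma adjusted p = 0.078). A fit without 1 array assumes that the lone array varies like the duplicates of the other line.

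Some members that did not pass changed sign, and the cause was not tested. Under quantile normalization the second probe set of Rpsa came to 0.088, that of Rps3 to 0.13, Rps29 to 0.0033 and Rps16 to 0.0011. Median scaling gave 0.043 for Rpsa and 0.033 for Rps3, cyclic loess 0.11 for Rpsa, 0.10 for Rps3 and 0.0079 for Rpl26, and the cap 0.036 for Rps3. With 1 array left out, the second probe sets ranged from -0.12 to 0.12 for Rpsa, -0.13 to 0.11 for Rps3, -0.0078 to 0.20 for Rps6 and -0.062 to 0.14 for Rpl13a. Rpl26 ranged from -0.21 to 0.014, 1 probe set of Rpl21 from -0.36 to 0.11 and Rpl11 from -0.075 to 0.086. Signals near the maximum limit what the arrays could resolve for the brightest members.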

Other observations

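The 40 probe sets that list a ribosomal symbol beside other symbols, which the rule left out, gave similar values. Of the 39 that were tested, 3 were higher and none was lower in limma (7.7% past the threshold, beside 34.1% of all). At an unadjusted p under 0.05 in limma 4 were higher and none lower, beside 1131 and 1630 of all 6555. Their median log2 difference was -0.07 with all arrays and 0.04 without G replicate 1. The lines overlapped for 24 of the 39 (61.5%, against 32.3% of all tested probe sets). G replicate 1 read above G replicate 0 for 34, beside 2352 of all 6555 and 180 of the 226 with a MAT-LyLu mean of 30000 or more. Signals near the array maximum occurred on at least 1 array for 8 of them and on all 4 arrays for 4, beside 43 and 27 of all 6555.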
